A study of Mus musculus with 8 samples.

Results

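The genes described here are 10 glutathione S-transferases of the mouse, the cytosolic Gstm1, Gstm2, Gstm5, Gsta4, Gsto1, Gstp1 and Gstt1 and the microsomal Mgst1, Mgst2 and Mgst3. They were chosen as named members of the transferase families and matched by symbol to the Ensembl gene identifiers of the count table, where all 10 were found among 16341 genes counted. The study sorted 4T1 cells, a mammary carcinoma line of BALB/c mice, by the surface protein SCA1, which Ly6a encodes, and sequenced RNA from 4 libraries of 4T1-Sca1+ and 4 libraries of 4T1-Sca1- cells. The source label places the origin of both fractions in the parental 4T1 line, and the paper states the same of the cells it profiled. The extraction protocol, however, speaks of 4T1 tumor stained for SCA1 and passed over magnetic columns, and a further label gives the gate as CD45-negative. No genotype, treatment, time or age separates the groups in the labels, both come from 1 cell line, and whether the 4 libraries of a group were separate sorts is not stated, so p-values measure the spread between these libraries only. The comparison asks which transferase transcripts distinguish cells that carry SCA1 from cells that do not.

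Glutathione S-transferases join the tripeptide glutathione to reactive electrophiles, which makes the product more soluble and ready for export. The soluble enzymes fall into classes named by Greek letters (alpha, mu, omega, pi, theta and others), while the membrane-bound enzymes belong to the unrelated MAPEG family, whose members also handle lipid peroxides and leukotriene precursors. Many transferase genes are known targets of NRF2, a transcription factor that binds the antioxidant response element (ARE), and the enzymes have long been studied for their part in resistance of tumor cells to alkylating drugs.

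Library depth was similar in the fractions (15041995 to 16968215 counts for 4T1-Sca1+, 13561804 to 16142836 for 4T1-Sca1-), and 11717 genes had enough counts to be tested. Ly6a checked the labels: 709 counts of it fell in 4T1-Sca1+ and 7 in 4T1-Sca1- cells, summed per fraction. Epithelial markers were plentiful in both fractions. Their summed normalized counts (counts divided by a size factor for each library) were 38096 to 41621 and 35101 to 37330. Of the 6, Cdh1 was lower in 4T1-Sca1+ cells (log2 fold change -0.69, SE 0.04, adjusted p = 6.19e-10 by edgeR). Krt18 and Krt8 were higher (0.38 and 0.31, adjusted p = 8.61e-07 and 6.40e-06), and Epcam, Krt19 and Cldn7 did not pass. Markers of other cell types were scarce but not equal between the fractions. The 10 leukocyte markers, 8 of them counted, summed to 199 to 226 in 4T1-Sca1+ and 83.1 to 120 in 4T1-Sca1- libraries. All 3 that could be tested (S100a8, Csf1r and Cd74, log2 fold changes 2.38, 1.18 and 0.94) were higher, beside 31.3% of all tested genes. S100a8, at 7, 3, 8 and 10 counts in 4T1-Sca1- libraries, reached the count filter only through 4T1-Sca1+ libraries. Ptprc, which encodes CD45 itself, had 10 and 2 counts in all. Itgam had 10 and 11, Cd79a 24 and 18, Cd3e 3 and 1, and Lyz2 0 and 1. Fibroblast markers, 5 of 7 counted, summed to 603 to 647 and 372 to 438, most of it from Pdgfra. Col1a1 had 204 and 109 counts in all, Dcn 49 and 4, Pdgfrb 27 and 1, and Col1a2 19 and 18. Endothelial markers summed to 27.6 to 34.9 and 35.3 to 50.2, most of it from Tie1, which was called lower (log2 fold change -0.60, SE 0.19). Tie1 had 108 and 147 counts in all, whereas Pecam1 had 21 and 4, Cdh5 3 and 7, and Emcn 0 and 1. Adipocyte markers summed to 5.98 to 8.88 and 2.05 to 9.55, with Adipoq at 1 count in each fraction. The part of such cells in the results below was not tested, and in bulk RNA more cells that express a gene and more RNA per cell cannot be told apart.

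The sequence before the start of 4 members is shown because these genes differ widely in their change between the fractions while 3 of them lie in the same cluster. RefSeq promoter windows on GRCm38.p6 (250 bases before to 50 bases after an annotated start) matched 9 of the 10 members. There were 11 windows in all, and Gsta4 had no entry. Gstm1 and Mgst1 had 2 windows each, of which window 1 is shown. The start of that Gstm1 window lies inside the gene as GENCODE places it (up to 108017973, minus strand). The 250 bases of Gstm1 window 2, chr3:108017974-108018223, lie upstream of that gene. Each line gives the 250 bases before the start, 5′ to 3′ on the gene's strand, and capitals mark the ARE core (TGACNNNGC) or the AP-1 element (TGANTCA) on either strand. The Gstm1 line is chr3:108017819-108018068 on the minus strand, the Gstm2 line chr3:107986421-107986670 on the minus strand, the Gstm5 line chr3:107895604-107895853 on the plus strand and the Mgst1 line chr6:138140277-138140526 on the plus strand.
Gstm1: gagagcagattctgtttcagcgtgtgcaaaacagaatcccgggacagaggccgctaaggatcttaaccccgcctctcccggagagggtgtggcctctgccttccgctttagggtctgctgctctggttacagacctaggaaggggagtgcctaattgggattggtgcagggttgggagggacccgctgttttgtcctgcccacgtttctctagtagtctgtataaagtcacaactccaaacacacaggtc
Gstm2: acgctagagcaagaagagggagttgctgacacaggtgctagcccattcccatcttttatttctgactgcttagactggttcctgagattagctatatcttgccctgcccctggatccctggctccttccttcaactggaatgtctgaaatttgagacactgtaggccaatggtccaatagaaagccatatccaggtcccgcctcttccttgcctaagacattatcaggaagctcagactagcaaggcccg
Gstm5: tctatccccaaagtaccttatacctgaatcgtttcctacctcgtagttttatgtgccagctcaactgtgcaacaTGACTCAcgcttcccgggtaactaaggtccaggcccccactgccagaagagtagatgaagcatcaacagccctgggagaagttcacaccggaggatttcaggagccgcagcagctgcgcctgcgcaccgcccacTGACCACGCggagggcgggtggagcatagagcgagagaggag
Mgst1: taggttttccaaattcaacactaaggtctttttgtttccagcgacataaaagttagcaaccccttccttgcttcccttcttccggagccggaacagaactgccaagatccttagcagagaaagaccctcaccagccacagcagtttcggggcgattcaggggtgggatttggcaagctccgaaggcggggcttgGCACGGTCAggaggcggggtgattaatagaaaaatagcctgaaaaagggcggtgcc

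The ARE core was found in 2 of the 11 windows of members, those of Gstm5 (TGACCACGC, its first base 42 bases before the start) and Mgst1 (GCACGGTCA, which is the motif on the opposite strand, 56 bases before the start), against 12.4% of all 32851 windows of 300 bases. The AP-1 element was in 3 windows, at Gstm5 (TGACTCA, 176 bases before the start), Gstp1 (TGAGTCA, 74 bases before) and Mgst2 (TGACTCA, 52 bases before), against 7.81% of all windows. The STAT half-site pair TTCNNNGAA, searched because the study centres on STAT signaling, was in 2 windows, downstream of a second Mgst1 start and of the Mgst2 start, against 8.3% of all windows. Both Gstm1 windows and the windows of Gstm2, Gsto1, Gstt1 and Mgst3 held none of these letters. A match is a description of the sequence only, and its absence says nothing of sites outside the window.

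Of the 10 transferases, 8 were higher in 4T1-Sca1+ cells, 1 (Gsto1) was lower, and Gstt1 had too few counts for the test. By the same rule, an adjusted p under 0.05 in edgeR's quasi-likelihood test, 61.5% of all tested genes were called, 31.3% as higher and 30.2% as lower. The fractions did not overlap in 7 of the 8 higher members and in Gsto1, and 54.7% of all tested genes had no overlap in either direction, 26.8% with 4T1-Sca1+ on the higher side. When each library was first corrected for transcript GC content, the calls over all genes shifted from 50.9% to 39.7% higher, and the 9 tested transferases remained called in the same direction. In all, 5 of the 9 tested members, Gstm1, Gsta4, Mgst1, Gstm2 and Mgst2, were at least 2-fold higher, as were 5.22% of all tested genes, and none was 2-fold lower, as were 0.879% of all tested genes. The median log2 fold change of the 9 was 1.20, beside 0.0074 over all tested genes. Of the members, 3 (Gstm1, Gstm2 and Mgst1) are in a Sca1-positive gene signature that the study chose on these same libraries, so their direction there is no independent evidence.

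**Figure D1:**
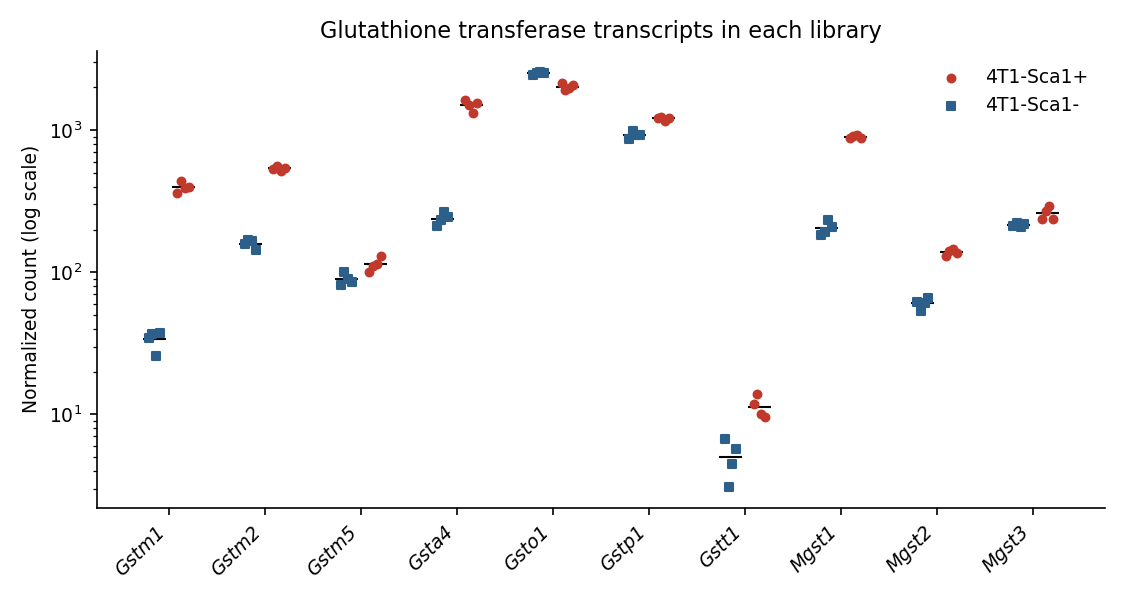
Normalized count of each transferase gene in every library on a log axis (circles, 4T1-Sca1+; squares, 4T1-Sca1-; black line, mean of 4). Gstm1, Gstm2, Gsta4, Mgst1 and Mgst2 stand apart from their 4T1-Sca1- values in all libraries, Gsto1 is shifted the other way, and the Gstm5 groups touch at about 101; heights of different genes are not comparable because gene length is not corrected.

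The mu-class genes lie together on chromosome 3, and their enzymes act on epoxides, quinones and lipid aldehydes. Gstm1 (ENSMUSG00000058135; GRCm38 chromosome 3, 108012255 to 108017973, minus strand) had 393, 446, 393 and 457 counts in the 4T1-Sca1+ libraries and 36, 36, 23 and 33 in the 4T1-Sca1- libraries. Every 4T1-Sca1+ library was far above every 4T1-Sca1- library. In normalized counts this was 398 ± 33.1 against 33.7 ± 5.55 (SD, n = 4), 11.9-fold, with a log2 fold change of 3.57 (SE 0.12, adjusted p = 6.04e-14 by edgeR). Its change stood at percentile 99.8 of all tested genes and was the highest among the members.

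Gstm2 (ENSMUSG00000040562; chromosome 3, 107981702 to 107986453, minus strand), the next mu-class gene with appreciable counts, had normalized counts of 537, 557, 517 and 543 in 4T1-Sca1+ and 158, 169, 167 and 143 in 4T1-Sca1- cells. The libraries of a group lay close together and the groups did not overlap. The difference was 3.41-fold (log2 fold change 1.77, SE 0.07, adjusted p = 1.07e-12). Gstm5 (ENSMUSG00000004032; chromosome 3, 107895821 to 107898686, plus strand), the mu-class member transcribed from the opposite strand, had normalized counts of 101, 111, 114 and 130 in 4T1-Sca1+ and 81.2, 101, 90.2 and 85.6 in 4T1-Sca1- cells. The lowest 4T1-Sca1+ library met the highest 4T1-Sca1- library, so the groups overlapped. Its log2 fold change of 0.36 (SE 0.11) passed the test with an adjusted p of 0.0108, which ran from 0.00674 to 0.0486 when each library was left out in turn. Exons of Gstm5 overlap the counted gene 4933431E20Rik on the other strand over 178 bases, and that gene was itself higher (17.2 ± 7.34 against 5.85 ± 2.61 normalized counts, log2 fold change 1.56, SE 0.40, adjusted p = 0.00245). The use of strand in counting is not given in the sources used here, so reads from these genes may not be separated. With 7, 2, 6 and 7 counts in 4T1-Sca1- libraries, 4933431E20Rik reached the count filter only through 4T1-Sca1+ libraries.

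The remaining mu-class genes were near the limit of detection. Over the 4 libraries of each group, Gstm4 had 26 counts in 4T1-Sca1+ and 33 in 4T1-Sca1- cells, Gstm7 had 16 and 1, Gstm6 had 14 and 0, and Gstm3 had 1 and 1. For Gstm7 the ratio was 14.3 with an exact 95% counting interval of 2.22 to 599, which covers counting error only. Gstm6 had 0, 4, 2 and 8 counts in 4T1-Sca1+ libraries, so the groups overlapped at 0. Its ratio was 4.16 when a floor of 3 counts over the 4 4T1-Sca1- libraries was taken. That floor leaves out the counting error of the 4T1-Sca1+ counts, so the value is not a lower bound. All 7 Gstm genes together reached 1008 to 1126 normalized counts in 4T1-Sca1+ and 277 to 310 in 4T1-Sca1- libraries. Of 50-base windows of the annotated Gstm1 transcript, 23.1% also occur in another annotated transcript, chiefly the pseudogene Gstm2-ps1 and Gstm3, and for Gstm2 the share was 9.36%, so part of these counts cannot be assigned with certainty.

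**Figure D2:**
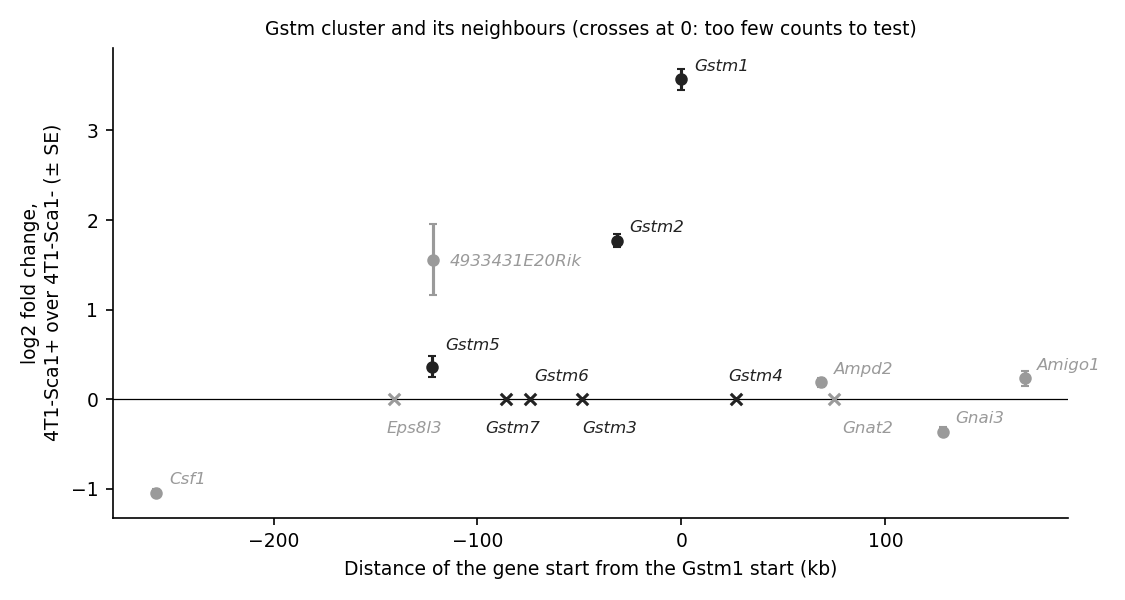
log2 fold change (± standard error) of counted genes within 150 kb of the Gstm cluster against the distance of their start from that of Gstm1. Gstm1 (3.57) stands above the other tested genes, Gstm2 (1.77) and 4933431E20Rik (1.56) lie within error of each other, Csf1 lies at -1.04, and crosses at 0 mark genes with too few counts to test, not genes with no change. 4933431E20Rik reached the count filter only through 4T1-Sca1+ libraries.

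The tested genes flanking the cluster had smaller changes than Gstm1 or went in the other direction. At the Gstm5 end, 4933431E20Rik was higher by 1.56 (SE 0.40), within its error of the 1.77 of Gstm2. As given above, 4933431E20Rik reached the count filter only through 4T1-Sca1+ libraries. Csf1, the macrophage growth factor beyond that end, was lower in 4T1-Sca1+ cells (log2 fold change -1.04, SE 0.04, adjusted p = 1.80e-12). Beyond the other end, Ampd2, an AMP deaminase, was slightly higher (0.19, SE 0.05, adjusted p = 0.00448), Gnai3, an inhibitory G protein subunit, was lower (-0.36, SE 0.05, adjusted p = 9.33e-06) and Amigo1, a neuronal adhesion protein, was higher (0.23, SE 0.09, adjusted p = 0.0263).

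Within the mu class the changes themselves differed. The log2 ratio of Gstm1 to Gstm2 counts within a library was -0.44 ± 0.10 in 4T1-Sca1+ and -2.22 ± 0.32 in 4T1-Sca1- cells (SD, n = 4), a difference of 1.78. The ratio of Gstm1 to Gstm5 differed by 3.19 and that of Gstm2 to Gstm5 by 1.41 between the fractions. Each difference gave p = 0.0286 in an exact two-sided permutation test over 70 assignments, the smallest p that 4 against 4 libraries allow, and 0.0286 after Benjamini-Hochberg adjustment over the 6 pairs tested within classes.

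Gsta4 (ENSMUSG00000032348; chromosome 9, 78182774 to 78209349, plus strand) encodes the alpha-class enzyme that conjugates 4-hydroxynonenal, an aldehyde formed when lipids are oxidized. Its normalized counts were 1623, 1511, 1319 and 1560 in 4T1-Sca1+ and 211, 233, 265 and 243 in 4T1-Sca1- cells. The 4T1-Sca1+ values were all several times the highest 4T1-Sca1- value. The difference was 6.39-fold (log2 fold change 2.68, SE 0.08, adjusted p = 2.03e-14), at percentile 99.5 of all tested genes, and no 50-base window of its transcript occurs in another annotated gene.

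Other alpha-class genes next to Gsta4 were expressed at lower levels. Gsta1 had 135, 109, 80.8 and 82.3 normalized counts in 4T1-Sca1+ and 21.01, 13.3, 17.8 and 14.8 in 4T1-Sca1- cells. Its log2 fold change was 2.60 (SE 0.22, adjusted p = 1.86e-08). Of its 50-base windows 89.7% are shared, mostly with Gm3776 and Gsta2. Gm3776, a predicted gene of the same cluster, was higher as well (36.6 ± 8.61 against 3.20 ± 0.923, log2 fold change 3.49, SE 0.32). It had 2, 4, 3 and 3 counts in 4T1-Sca1- libraries and reached the count filter only through 4T1-Sca1+ libraries. Gsta2 had 30 and 8 counts in all and was below the filter. Gsta3, an alpha-class enzyme that also takes part in steroid isomerization and which is not in this cluster, had 35, 32, 19 and 24 counts in 4T1-Sca1+ libraries and 0 in each 4T1-Sca1- library. Its ratio was 32.7 when a floor of 3 counts over the 4 4T1-Sca1- libraries was taken. Here too the counting error of the 4T1-Sca1+ counts was left out, so the value is not a lower bound.

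Gsto1 (ENSMUSG00000025068; chromosome 19, 47854970 to 47864790, plus strand) encodes the omega-class enzyme, which reduces dehydroascorbate and removes glutathione from proteins rather than adding it to electrophiles. Its normalized counts were 2152, 1910, 1973 and 2089 in 4T1-Sca1+ and 2449, 2531, 2589 and 2510 in 4T1-Sca1- cells. It was the one member lower in 4T1-Sca1+ cells, and the groups did not overlap. The log2 fold change was -0.30 (SE 0.05, adjusted p = 3.61e-05). Its paralogue Gsto2 had 21.8 ± 4.46 and 21.3 ± 7.31 normalized counts and did not pass (log2 fold change 0.05, SE 0.26, adjusted p = 0.888), with a sign that turned under GC correction and when 4T1-Sca1+ replicate 4 or 4T1-Sca1- replicate 2 was left out.

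Gstp1 (ENSMUSG00000060803; chromosome 19, 4035407 to 4037985, minus strand) encodes the pi-class enzyme, which is abundant in many tumors and also binds the stress kinase JNK. Its normalized counts were 1220, 1247, 1169 and 1227 in 4T1-Sca1+ and 869, 986, 923 and 933 in 4T1-Sca1- cells. The groups did not overlap, with a 1.32-fold difference (log2 fold change 0.40, SE 0.05, adjusted p = 2.53e-06). Correction for GC content brought the log2 fold change to 0.19 (adjusted p = 0.000852). Its neighbour Gstp2 and the pseudogene Gstp-ps share 62.3% of the 50-base windows of Gstp1, and Gstp2 was given 0 counts in 4T1-Sca1+ and 3 in 4T1-Sca1- libraries.

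Gstt1 (ENSMUSG00000001663; chromosome 10, 75783813 to 75798584, minus strand) encodes a theta-class enzyme that acts on small halogenated compounds. It had 13, 14, 10 and 11 counts in the 4T1-Sca1+ libraries and 7, 3, 4 and 5 in the 4T1-Sca1- libraries. The groups did not overlap, but these counts were below the filter. With all genes kept, edgeR gave a log2 fold change of 1.15 (SE 0.41, adjusted p = 0.0162), and the ratio of the summed counts was 2.25 with an exact 95% counting interval of 1.30 to 4.06. The more abundant theta-class gene Gstt3 had normalized counts of 266 ± 17.3 and 217 ± 15.1 (log2 fold change 0.30, SE 0.08, adjusted p = 0.00297), and Gstt2 had 31 and 32 counts in all.

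Among the microsomal enzymes, Mgst1 (ENSMUSG00000008540; chromosome 6, 138140316 to 138156755, plus strand) is the general detoxifying form of the endoplasmic reticulum and outer mitochondrial membrane. Its normalized counts were 880, 908, 930 and 886 in 4T1-Sca1+ and 183, 193, 233 and 209 in 4T1-Sca1- cells. Every 4T1-Sca1+ library was well above every 4T1-Sca1- library. The difference was 4.46-fold (log2 fold change 2.16, SE 0.07, adjusted p = 6.04e-14), at percentile 98.9 of all tested genes.

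Mgst2 (ENSMUSG00000074604; chromosome 3, 51660360 to 51682677, plus strand), which can make leukotriene C4, lies on the chromosome of the Gstm genes but far from their cluster. It had normalized counts of 130, 142, 146 and 137 in 4T1-Sca1+ and 62.1, 53.4, 61.2 and 66.2 in 4T1-Sca1- cells. The groups did not overlap, and the difference was 2.30-fold (log2 fold change 1.20, SE 0.11, adjusted p = 5.12e-08). Mgst3 (ENSMUSG00000026688; chromosome 1, 167371966 to 167393841, minus strand), the MAPEG member with glutathione peroxidase activity, had 239, 271, 292 and 239 in 4T1-Sca1+ and 210, 221, 209 and 219 in 4T1-Sca1- cells. The groups did not overlap although the lowest 4T1-Sca1+ libraries came near the 4T1-Sca1- values, and the log2 fold change was 0.29 (SE 0.08, adjusted p = 0.00607).

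The microsomal genes also differed from each other in their change. Between the fractions the log2 count ratio of Mgst1 to Mgst2 differed by 0.96, that of Mgst1 to Mgst3 by 1.87 and that of Mgst2 to Mgst3 by 0.91 (exact two-sided permutation test, p = 0.0286 for each). Other MAPEG genes varied as well. Ptges, which encodes the microsomal prostaglandin E synthase, had 2295 ± 87.5 normalized counts in 4T1-Sca1+ and 759 ± 53.0 in 4T1-Sca1- cells (log2 fold change 1.61, SE 0.05, adjusted p = 1.16e-13). Ltc4s, the leukotriene C4 synthase, had 14.8 ± 6.39 and 11.4 ± 2.97 (0.38, SE 0.33, adjusted p = 0.341), and Alox5ap, its partner in leukotriene synthesis, had 6 and 1 counts in all.

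**Figure D3:**
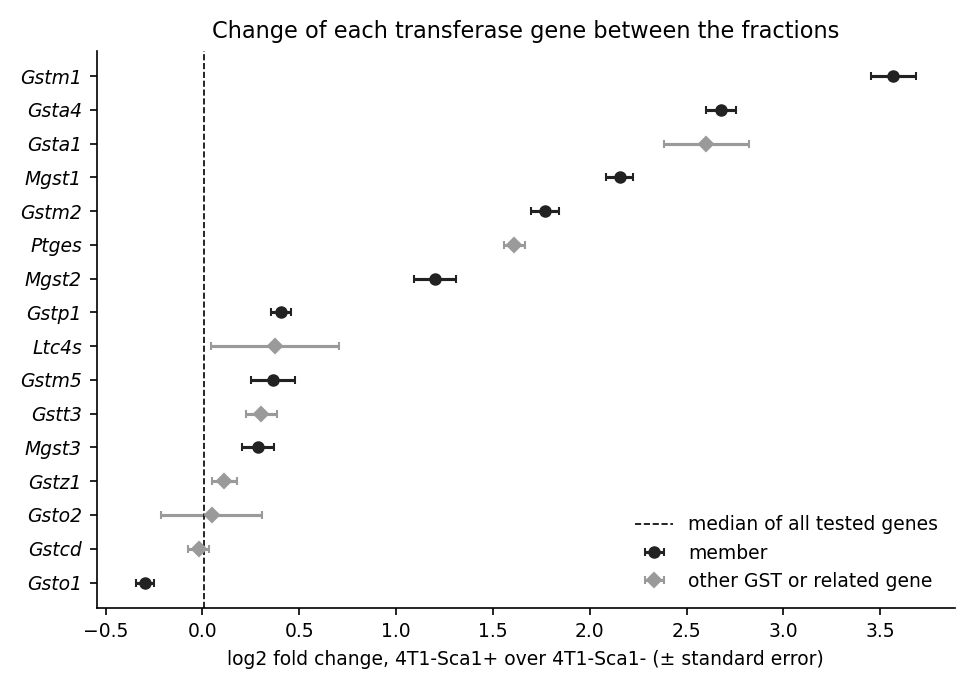
log2 fold change (± standard error) of the 9 tested members (circles) and of 7 further transferase or MAPEG genes (diamonds); Gsta3 is left out because it had 0 counts in 4T1-Sca1- cells. The members run from -0.30 for Gsto1 to 3.57 for Gstm1, beside a median of 0.0074 over all tested genes (dashed line).

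Outside the members, 20 further transferase and MAPEG genes were listed, of which 18 were counted and 8 tested. In this group the share called was below the 61.5% of all tested genes. Gsta3 had 0 counts in 4T1-Sca1- libraries and passed the count filter through 4T1-Sca1+ alone, so it could only be called higher. With Gsta3, 4 were higher (Gsta1, Gsta3, Gstt3 and Ptges), none was lower, and 4 did not pass. Those 4 were Gsto2 and Ltc4s, given above, Gstz1, the zeta-class enzyme of tyrosine breakdown (362 ± 5.41 and 338 ± 17.3 normalized counts, log2 fold change 0.11, SE 0.06, adjusted p = 0.142, but 0.0454 when libraries were scaled by totals alone), and Gstcd (608 ± 11.2 and 621 ± 16.8, log2 fold change -0.02, SE 0.05, adjusted p = 0.771, with a sign that turned under scaling by totals and by upper quartile). Gstk1, the kappa-class enzyme, had 11 and 13 counts in all, and Gstt4 had 10 and 2.

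Levels of different genes were compared per length, as RPKM, here the counts of a gene divided by the kilobases of its annotated exons and by the library total. In 4T1-Sca1- cells Gsto1 stood first at 80.4 ± 1.96 RPKM, then Gstp1 (38.7 ± 1.71), Mgst3 (12.6 ± 0.267), Gsta4 (12.1 ± 1.17), Mgst1 (6.56 ± 0.717), Gstm2 (6.12 ± 0.451), Gstm5 (4.51 ± 0.387), Gstm1 (1.47 ± 0.237), Mgst2 (1.06 ± 0.0998) and Gstt1 (0.211 ± 0.0671). The libraries of Mgst3 and Gsta4, of Mgst1 and Gstm2, and of Gstm1 and Mgst2 overlapped, so the order within these pairs was not resolved. In 4T1-Sca1+ cells the per-length order was Gsta4 (79.7 ± 7.21), Gsto1 (67.3 ± 3.69), Gstp1 (52.7 ± 1.65), Mgst1 (30.02 ± 0.665), Gstm2 (21.5 ± 0.760), Gstm1 (18.1 ± 1.54), Mgst3 (15.9 ± 1.55), Gstm5 (5.97 ± 0.640), Mgst2 (2.51 ± 0.120) and Gstt1 (0.497 ± 0.0855). Here the libraries of Gsta4 and Gsto1 and those of Gstm1 and Mgst3 overlapped. Gstm5 stood above Gstm1 per length in every 4T1-Sca1- library and below it in every 4T1-Sca1+ library.

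The makeup of the transferase transcripts shifted accordingly. Gsto1 held 49.1 ± 0.693% of the summed per-length level of the 10 members in 4T1-Sca1- and 22.9 ± 1.01% in 4T1-Sca1+ cells (SD, n = 4). Gsta4 held 7.40 ± 0.520% and 27.0 ± 1.66%, Mgst1 4.00 ± 0.344% and 10.2 ± 0.543%, and Gstm1 0.902 ± 0.157% and 6.16 ± 0.552%. Gstp1, although higher in 4T1-Sca1+ cells, held 23.6 ± 0.731% in 4T1-Sca1- and 17.9 ± 0.278% in 4T1-Sca1+ cells. When the longest annotated transcript replaced the union of exons as the length, Gsto1 held 51.3% and 25.5%, Gsta4 5.85% and 22.9%, and Gstp1 27.2% and 22.02% in 4T1-Sca1- and 4T1-Sca1+ cells, so Gsto1 and not Gsta4 then stood first in both. All 10 members together took 0.0457% to 0.0486% of the counts of a 4T1-Sca1+ library and 0.0277% to 0.0297% of a 4T1-Sca1- library.

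**Figure D4:**
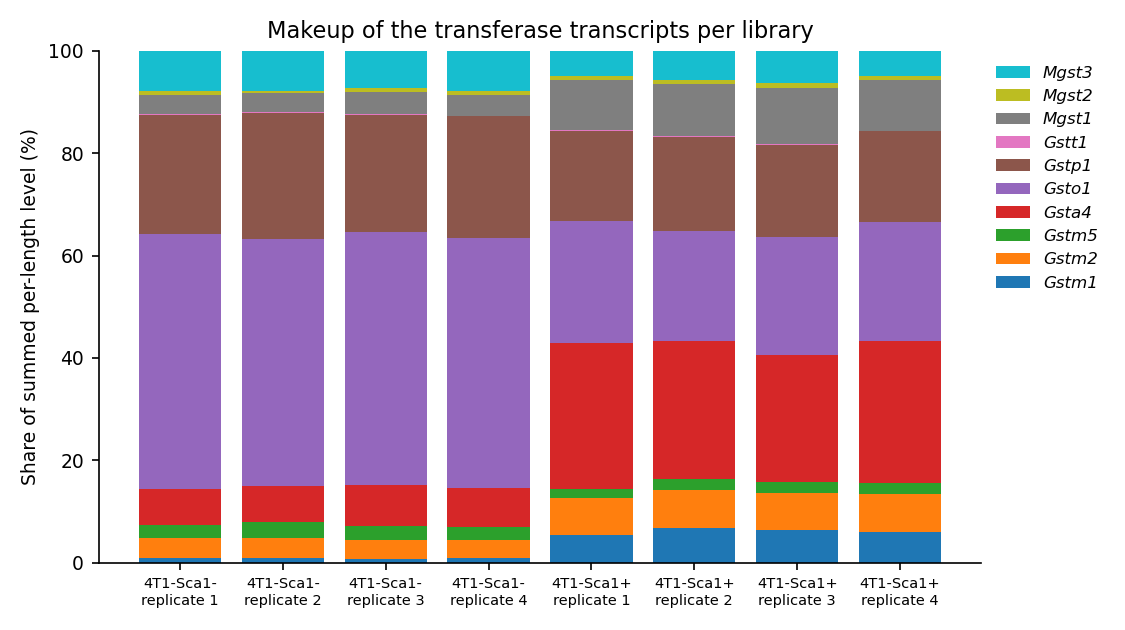
Share of each member in the summed per-length level of the 10 transferases, per library, as stacked bars from 0 to 100%. Gsto1 fills 48.3% to 49.96% of each 4T1-Sca1- bar and 21.4% to 23.8% of each 4T1-Sca1+ bar, while Gsta4 goes from 6.88% to 8.05% to between 24.8% and 28.7%.

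Glutathione, the cosubstrate of these enzymes, is made from cysteine that enters as cystine. Of 12 listed genes of glutathione synthesis and recycling, all were tested, 7 were higher and none was lower in 4T1-Sca1+ cells, beside 31.3% higher and 30.2% lower of all tested genes. Slc7a11, the cystine transporter, rose from 311 ± 3.73 to 1755 ± 111 normalized counts (log2 fold change 2.51, SE 0.06, adjusted p = 1.87e-15). Gclc and Gclm, the subunits of the rate-limiting ligase, were higher by 0.46 and 0.60 on the log2 scale, Gsr, which reduces oxidized glutathione, by 0.33, and Pgd, an NADPH-producing enzyme, by 0.33. Oplah (0.69, adjusted p = 0.0161) and Chac1 (0.21, adjusted p = 0.0415), both of glutathione breakdown, passed in groups that overlapped. Oplah lost its call under GC correction and without 4T1-Sca1+ replicate 2, 4T1-Sca1- replicate 1 or 4T1-Sca1- replicate 4 (adjusted p 0.0543 to 0.134). Chac1 turned to -0.05 under GC correction and lost its call with DESeq2 size factors, with DESeq2, in limma on the deposited signal, and without 4T1-Sca1+ replicate 3 or 4 or 4T1-Sca1- replicate 1, 3 or 4 (adjusted p 0.0521 to 0.546). The 5 that did not pass were Slc3a2 (0.06), Gss (-0.03), Ggct (-0.03), Chac2 (-0.10) and G6pdx (0.05). Of these Slc3a2 and G6pdx turned sign under GC correction, the former with an adjusted p of 0.0139, and Gss and Ggct under scaling by totals.

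Among 11 tested glutathione peroxidases, glutaredoxins and related enzymes, which use glutathione without conjugating it, 2 were higher and 5 lower, a share called that was near the 61.5% of all tested genes. Hagh, a glyoxalase (0.37, SE 0.06), and Glrx, a glutaredoxin (0.27, SE 0.08), were higher, and Gpx8, a peroxidase of the endoplasmic reticulum (-0.50, SE 0.06), and Glrx3, an iron-sulfur glutaredoxin (-0.45, SE 0.07), were the lowest. Of 9 tested genes of conjugate export and mercapturate formation, 4 were higher and 2 lower, again near that background of 61.5% called. Of the 4, Ggt7 (13, 5, 6 and 12 counts in 4T1-Sca1- libraries) and Acy3 (4, 6, 4 and 8) reached the count filter only through 4T1-Sca1+ libraries. Abcc3, an efflux pump of conjugates, had 760 ± 50.1 against 254 ± 34.3 normalized counts (1.60, SE 0.08, adjusted p = 2.09e-11), and Ggt7, of the gamma-glutamyltransferase family, had 27.2 ± 3.41 against 9.48 ± 4.21 (1.52, SE 0.27, adjusted p = 0.000114). Lap3, an aminopeptidase (-0.59, SE 0.05), and Abcc1, another conjugate pump (-0.24, SE 0.04), were lower.

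Of 17 genes listed as NRF2 regulators or reference targets, 3 of which (Slc7a11, Gclc and Gclm) are also in the synthesis list, 13 were higher, 3 lower and 1 did not pass, beside 31.3% higher and 30.2% lower of all tested genes. Cbr3, 1 of the 13, had 10, 5, 7 and 7 counts in 4T1-Sca1- libraries and reached the count filter only through 4T1-Sca1+ libraries. Nfe2l2, which encodes NRF2, had 2637 ± 160 against 1516 ± 53.3 normalized counts (0.81, SE 0.05, adjusted p = 5.10e-10). Keap1, its inhibitor, was higher by 0.31 (adjusted p = 9.51e-06), a call lost under GC correction (0.04, adjusted p = 0.355). Nqo1, a quinone reductase, was higher by 1.65 (SE 0.07) and Ephx1, the microsomal epoxide hydrolase, by 2.62 (SE 0.13), whereas Hmox1, heme oxygenase 1, was lower (-0.32, SE 0.06), as was Mafk (-0.27, SE 0.05). The median log2 fold change was 0.46 over this list, 0.27 over synthesis and recycling, 0.04 over export and -0.06 over the peroxidases and glutaredoxins, beside 0.0074 over all tested genes.

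**Figure D5:**
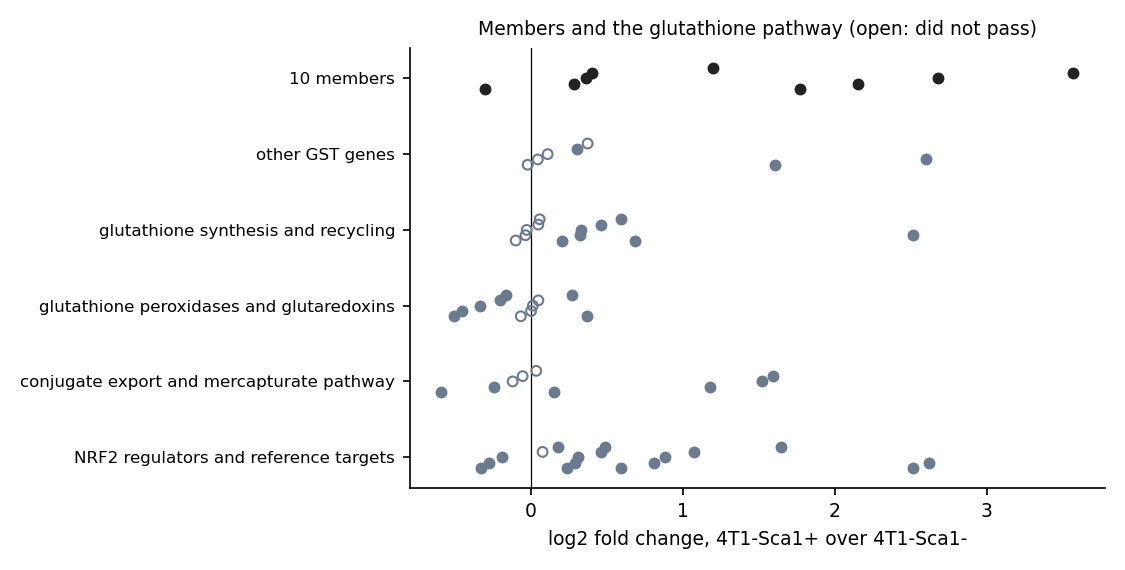
log2 fold change of each tested gene by list (filled, adjusted p under 0.05; open, did not pass; vertical position within a list has no meaning; Gsta3 is left out). Members run up to 3.57, while the peroxidases and glutaredoxins stay between -0.50 and 0.37.

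The genes whose levels followed Gstm1 most closely over the 8 libraries were Idh1, the cytosolic NADP-dependent isocitrate dehydrogenase (Pearson r = 0.999 of log2 CPM), Fah, fumarylacetoacetase (r = 0.999), and Aldh3a2, a fatty aldehyde dehydrogenase (r = 0.998), among 9610 genes whose normalized count averaged 100 or more. Because the libraries fall into 2 groups, r mainly records a difference between them, and 145 genes exceeded 0.99. Idh1 had 2413 ± 109 normalized counts in 4T1-Sca1+ and 645 ± 58.4 in 4T1-Sca1- cells.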

How the data were processed

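RNA of 8 sorted 4T1 libraries was measured by sequencing (Illumina TruSeq, NextSeq). The submitters' processing notes name cutadapt 1.16, STAR 2.5.3a and GRCm38/mm10, with no roles; the counting tool, annotation and use of strand are not given in the sources used here. The authors deposited raw counts per Ensembl gene, which were tested as they stand. They also deposited a normalized signal, which equalled the counts divided by DESeq2 size factors to a relative difference of at most 5e-15.

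Counts were fitted with edgeR 4.0.16 in R 4.3.3 (filterByExpr, TMM, quasi-likelihood test, two-sided) over all 8 libraries, with Benjamini-Hochberg adjustment over 11717 tested genes and a threshold of 0.05. Total counts per library were 13561804 to 16968215. Normalized counts are counts divided by size factors, as mean ± SD of 4 libraries. Symbols, positions and exon lengths came from GENCODE M21 (GRCm38), matched by Ensembl ID for 16200 of 16341 genes. Ratios of members added 1 count. Sequences and motif windows came from RefSeq (GRCm38.p6). The fit was tested on simulated counts in which few genes changed. That setting does not test the scaling where 61.5% of tested genes are called, as here.

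The members, lists and tests were chosen with earlier results of these data known. Named were all 10 members, every tested gene of the transferase and synthesis lists and the highest and lowest called genes of further lists. Nfe2l2, Keap1, Nqo1 and Ly6a were named too, as were the 3 genes most like Gstm1. The neighbours of the clusters, the scarce markers of other cell types, Acy3 and Cbr3 were named after their values were seen. Alternatives were other scalings and filters, DESeq2 1.42.0, limma-voom and limma on the signal (limma 3.58.1), GC offsets, a replicate block, other thresholds, transcript lengths and leaving out each library.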

Additional observations from a re-analysis of the deposited data

Results flagged for a closer look

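None of the 10 transferases had a library that stood apart from the other 3 of its group by Dixon's test, which was run on 106 groups of 4 libraries and by chance alone would mark about 5.3. It marked 3, all in genes named as context. Chac1 in 4T1-Sca1- replicate 2 had a normalized count of 360.4, beside 302.8 to 309.3 in the other 4T1-Sca1- libraries. Krt8 in the same library had 11680, beside 10840 to 10950. Keap1 in 4T1-Sca1+ replicate 3 had 2172, beside 2041 to 2059.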

How the results depend on the processing

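All 179 alternative values of the 10 members kept their direction and their side of the threshold (for Gstt1 beside the fit with all genes kept). Over all 67 results, 1078 of 1123 alternative values stayed the same. Among these results, numbers of genes and shares have no direction or call and were judged by how far they moved. Requiring at least a 2-fold change left 612 genes higher and 103 lower of 3668 and 3538. Leaving out a library gave 3397 to 3642 higher and 3286 to 3548 lower genes, and GC-corrected offsets gave 3107 and 4716. With the longest transcript as length the shares in 4T1-Sca1- and 4T1-Sca1+ cells were 51.3% and 25.5% for Gsto1, 5.85% and 22.9% for Gsta4, and 27.2% and 22.02% for Gstp1. Same-numbered libraries did not deviate together (correlations of deviations 0.0867, -0.137, -0.0297 and -0.00317), so the numbers were not taken as pairs. With the replicate block edgeR called 3605 genes higher and 3452 lower, and the sign-flip test of the paired differences (Gstm1/Gstm2 1.78, Gstm1/Gstm5 3.19, Gstm2/Gstm5 1.41, Mgst1/Mgst2 0.96, Mgst1/Mgst3 1.87, Mgst2/Mgst3 0.91) gave p = 0.125 for each, the smallest p that an exact test of 4 pairs allows.

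Direction turned for some context genes, and the cause was not tested. Under GC offsets Gsto2 was -0.043, Slc3a2 -0.10, Chac1 -0.047 and G6pdx -0.075. Scaling by totals turned Gstcd to 0.024, Gss to 0.018 and Ggct to 0.0091, and upper-quartile scaling turned Gstcd to 0.0102 and Gss to 0.0038. Leaving out libraries moved Gsto2 between -0.17 and 0.21 and Ggct between -0.13 and 0.075. Chac1 lost its call in 10 of 19 alternatives. Tie1 lost its call without 4T1-Sca1- replicate 4 (adjusted p = 0.0512 by edgeR) and Krt8 under GC offsets (0.0898).

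Low counts limit Gstt1 (48 and 19 over the groups), the scarce Gstm genes and other transferases below the filter. Reads shared between paralogues or with an overlapping gene limit Gstp1, Gsta1, Gstm1 and Gstm5, and leukocyte and fibroblast markers moved with the fractions.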
